A study of Mus musculus with 4 samples.

Results

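The genes described here are 35 interferon-induced genes, taken by name from the 17813 genes of a single-cell expression table of mouse liver tumour tissue; all 35 were in the table. They were chosen by name, with earlier results of these data known, and not by a threshold on their level in any cell. The tissue came from 4 samples of C57BL/6 mice at 5 months of age, 2 labelled Miz1F/F (the control) and 2 labelled Miz1_delta_hep (Miz1 deleted in hepatocytes, as the name reads). Every group had received diethylnitrosamine (DEN, 25 mg/kg, injected into the abdomen at week 2 of life) and carbon tetrachloride every week after (CCl4 at a dose of 0.5 ml/kg), so all mice carried both the carcinogen and repeated liver injury, and no untreated liver was among the samples. Cells were captured on a droplet system that reads the 3' ends of transcripts and counts each captured molecule once by its unique molecular identifier (UMI).

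The barcodes of the table end in 1 of 4 numbers, which part the cells into 4 sets, and no source used here ties a set to a sample or a genotype. No comparison of Miz1F/F with Miz1_delta_hep was therefore made, and the labels were not checked against the Miz1 transcript. The sources used here do not give how the deletion was driven. The sets are given as 4 separate sets of values with their median, and no test was run across them. They held 2574, 6224, 4825 and 11179 cells, with a median of 2648, 906, 1037 and 1859 UMIs per cell. Of the 24802 cells, 748 (3.02%) had a barcode that occurs in more than 1 set, and leaving them out moved 1 of the counts given below by over 1.5 times, which is named there.

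Interferons are secreted proteins that cells release on sensing viral or microbial nucleic acid, or, for interferon gamma, on lymphocyte activation. Type I interferons act through the receptor of Ifnar1 and Ifnar2 and the kinases Jak1 and Tyk2, and lead to a complex with STAT2 and IRF9 that binds the interferon-stimulated response element (ISRE). Interferon gamma acts through Ifngr1 and Ifngr2, and its target genes carry the gamma-activated site (GAS). The genes under these elements encode sensors, transcription factors, enzymes and membrane proteins that limit viral replication. In liver, Kupffer cells, sinusoidal endothelial cells and hepatocytes all carry the type I receptor.

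The start sites of these genes show the elements named above, and 6 upstream stretches are shown because they span the kinds seen: ISRE cores, GAS and neither. Windows of 300 bases around the start were taken from RefSeq (build GRCm38.p6) and were matched for 28 of the 35 genes. The ISRE core searched was GAAANNGAAA and the GAS was TTCNNNGAA, each on both strands, with overlapping matches counted. A gene with several windows counted when any of them held the motif. The ISRE core was in 19 of the 28 genes (67.9%) and in 3.99% of all 27025 genes with a window. The GAS was in 8 of the 28 (28.6%) and in 9.55% of all genes. The stretches below are the 250 bases before the start on the gene's own strand, with matches to either motif in capitals.
Isg15 (chr4:156200819-156201068, minus strand): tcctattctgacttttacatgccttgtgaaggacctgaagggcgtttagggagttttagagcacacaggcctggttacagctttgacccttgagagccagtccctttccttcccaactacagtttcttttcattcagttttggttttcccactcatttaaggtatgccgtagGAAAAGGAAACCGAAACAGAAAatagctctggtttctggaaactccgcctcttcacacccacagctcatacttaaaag
Ifit3 (chr19:34583279-34583528, plus strand): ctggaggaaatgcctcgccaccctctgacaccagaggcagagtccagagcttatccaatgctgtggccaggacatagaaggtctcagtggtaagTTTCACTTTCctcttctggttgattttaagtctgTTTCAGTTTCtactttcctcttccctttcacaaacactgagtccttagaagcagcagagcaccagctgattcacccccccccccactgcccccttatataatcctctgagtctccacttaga
Ifit3b (chr19:34607707-34607956, plus strand): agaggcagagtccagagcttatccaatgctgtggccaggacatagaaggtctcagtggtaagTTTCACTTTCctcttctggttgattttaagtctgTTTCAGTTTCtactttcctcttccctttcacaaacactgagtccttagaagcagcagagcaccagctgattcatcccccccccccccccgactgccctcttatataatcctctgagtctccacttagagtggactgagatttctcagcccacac
Bst2 (chr8:71537473-71537722, minus strand): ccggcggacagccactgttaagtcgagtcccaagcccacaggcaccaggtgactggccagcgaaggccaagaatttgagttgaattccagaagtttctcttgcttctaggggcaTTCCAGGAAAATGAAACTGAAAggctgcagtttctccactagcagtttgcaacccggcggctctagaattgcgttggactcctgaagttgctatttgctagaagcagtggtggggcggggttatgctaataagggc
Irf1 (chr11:53769764-53770013, plus strand): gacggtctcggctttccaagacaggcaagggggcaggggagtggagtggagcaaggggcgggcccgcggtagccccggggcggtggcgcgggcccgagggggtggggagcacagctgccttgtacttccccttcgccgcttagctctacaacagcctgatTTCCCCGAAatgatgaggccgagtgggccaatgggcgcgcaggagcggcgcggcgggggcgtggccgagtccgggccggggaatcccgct
Irf7 (chr7:141266425-141266674, minus strand): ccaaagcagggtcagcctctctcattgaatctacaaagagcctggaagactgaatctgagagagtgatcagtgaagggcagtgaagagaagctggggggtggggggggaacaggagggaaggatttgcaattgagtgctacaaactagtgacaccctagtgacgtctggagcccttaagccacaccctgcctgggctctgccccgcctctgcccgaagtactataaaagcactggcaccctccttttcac
Isg15 held 3 overlapping ISRE cores, the first beginning 78 bases before the start. Ifit3 and Ifit3b each held 2 cores, at 156 and 122 bases and at 188 and 154 bases before the start. Bst2 held 2 overlapping cores and 1 GAS that overlaps the first of them. Irf1 held a GAS and no ISRE core in the window shown, and its other RefSeq window, whose upstream part begins at 53770223, held neither. Irf7 held neither motif in its window. Ifi44, Ifi47, Irf9, Oasl1, Oasl2 and Xaf1 also held neither.

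Several of the genes lie beside each other in the genome (GRCm38, GENCODE vM21). Ifit2, Ifit3, Ifit3b and Ifit1 follow one another on chr19 from 34550694 to 34650009. Oasl2 and Oasl1 lie side by side on chr5 from 114896936 to 114937915, and Gbp7 and Gbp2 on chr3 from 142530342 to 142638008. Ifit3 and Ifit3b are close copies, with 81.2% of aligned transcript positions identical, and Oas1a shares 90.61% with its neighbour in the family, Oas1g. The sources used here do not say how reads that fit both copies were counted, so the values of Ifit3, Ifit3b and Oas1a are uncertain to that extent.

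Cells were clustered without the interferon genes, and clusters were named from markers. This gave 16 classes, among them 6705 B cell-like, 2964 sinusoidal endothelial cell-like, 2439 T cell-like, 2349 monocyte/macrophage-like, 2066 Kupffer cell-like, 1315 neutrophil-like, 1220 conventional dendritic cell-like, 1183 hepatocyte-like and 973 plasmacytoid dendritic cell-like cells. A further 438 cells stayed unnamed. In some classes the sets fell in different clusters: sinusoidal endothelial cell-like cells of sets 2 and 3 were mostly in cluster 19 (728 of 784 and 383 of 407) and those of set 4 in cluster 21 (1107 of 1675). T cell-like cells of sets 1 and 4 were mostly in cluster 14 and those of sets 2 and 3 in cluster 15. A level is the mean over the cells of a class of the gene's share of the cell's UMIs, in counts per 1000000 (CPM), computed where a set held 20 or more such cells. Albumin, the defining hepatocyte transcript, had 44743, 51002, 32028 and 42980 CPM in hepatocyte-like cells of sets 1 to 4, and 325, 4041, 386 and 2201 CPM in B cell-like cells, so RNA from other cells is present at a level that differs between sets. Its part in the values below was not tested. These genes count UMIs at the 3' end and not per length, so order is given for 1 gene across classes and not between genes.

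Summed over the 35 genes, the level was highest in monocyte/macrophage-like cells, at 8154, 4218, 4616 and 9330 CPM in sets 1 to 4 (median 6385). Sinusoidal endothelial cell-like cells had 7710, 4484, 4356 and 6921 CPM (median 5702), plasmacytoid dendritic cell-like cells a median of 5572 and Kupffer cell-like cells a median of 5405 CPM. These classes overlap over the sets and their order is not firm. The lowest medians were in B cell-like cells, with 1204, 928, 921 and 1568 CPM (median 1066), in basophil/mast cell-like cells, with 354, 1079 and 1157 CPM in sets 2 to 4, and in plasma cell-like cells (median 1133). Each of the first 4 classes lay above every B cell-like value in all 4 sets.

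Much of the sum came from 3 abundant genes, Ifitm3, Ifi27l2a and Bst2. Without them, the remaining 32 genes summed to 2912, 2228, 2964 and 2380 CPM in Kupffer cell-like cells (median 2646). Neutrophil-like cells followed at 2837, 1917, 1495 and 2711 CPM (median 2314), sinusoidal endothelial cell-like cells at a median of 2283 and monocyte/macrophage-like cells at a median of 2017 CPM. The ranges of these classes overlap as well.

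**Figure D1:**
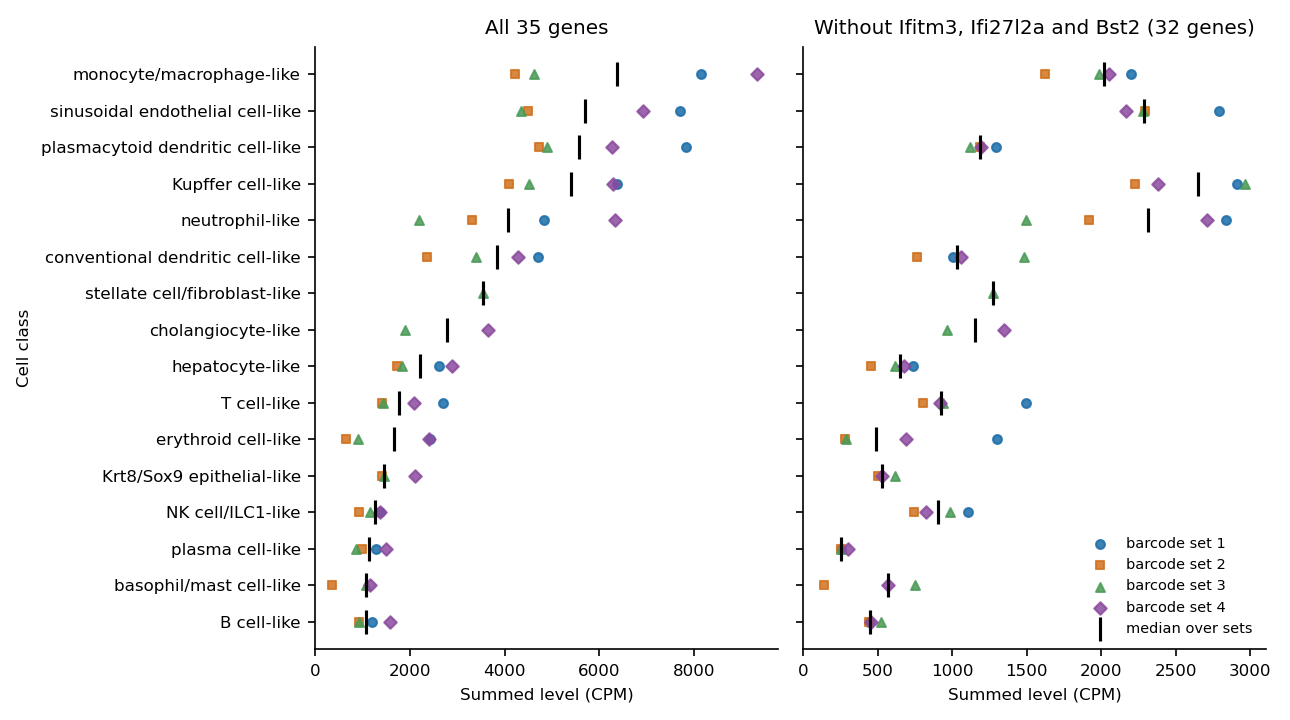
Summed level in CPM (horizontal axes) of all 35 genes and of the 32 left without Ifitm3, Ifi27l2a and Bst2, for each cell class (vertical axis), with 1 point per barcode set and a bar at the median. With all genes the monocyte/macrophage-like median is highest (6385 CPM), and without the 3 abundant genes the Kupffer cell-like median is (2646 CPM).

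Of the 35 genes, 34 reached 20 CPM in at least 1 class, and Mx1 did not. The class with the highest median was sinusoidal endothelial cell-like for 11 of the 34 (32.4%), against 12.7% of all 10627 genes that reached 20 CPM. Kupffer cell-like and neutrophil-like cells were highest for 5 each, against 6.24% and 4.45% of all genes. Monocyte/macrophage-like and plasmacytoid dendritic cell-like cells were highest for 4 each, against 1.75% and 6.48%. Of the rest, 3 were highest in stellate cell/fibroblast-like (17.1% of all genes), 1 in cholangiocyte-like (17.4%) and 1 in Krt8/Sox9 epithelial-like cells (5.77%), of which the first class had enough cells in only 1 set. No member was highest in B cell-like, T cell-like, hepatocyte-like or conventional dendritic cell-like cells. Of all genes, 3.48%, 2.91%, 7.87% and 1.68% were highest there, in that order. The basophil/mast cell-like class (6.23% of all genes) also led for no member. The same held for NK cell/ILC1-like (4.31%), plasma cell-like (1.24%) and erythroid cell-like cells (0.405%). With 34 members and shares this small, these absences do not set the classes apart. Without set 4, the endothelial count was 7 in place of 11. Below, highest means the highest median over sets. The genes highest in the same class in all 4 sets were Irf7, Ifit2, Ifit3, Oas1a, Oasl2, Bst2, Irgm1, Ifi44 and Slfn5, and every other gene had another leading class in at least 1 set.

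**Figure D2:**
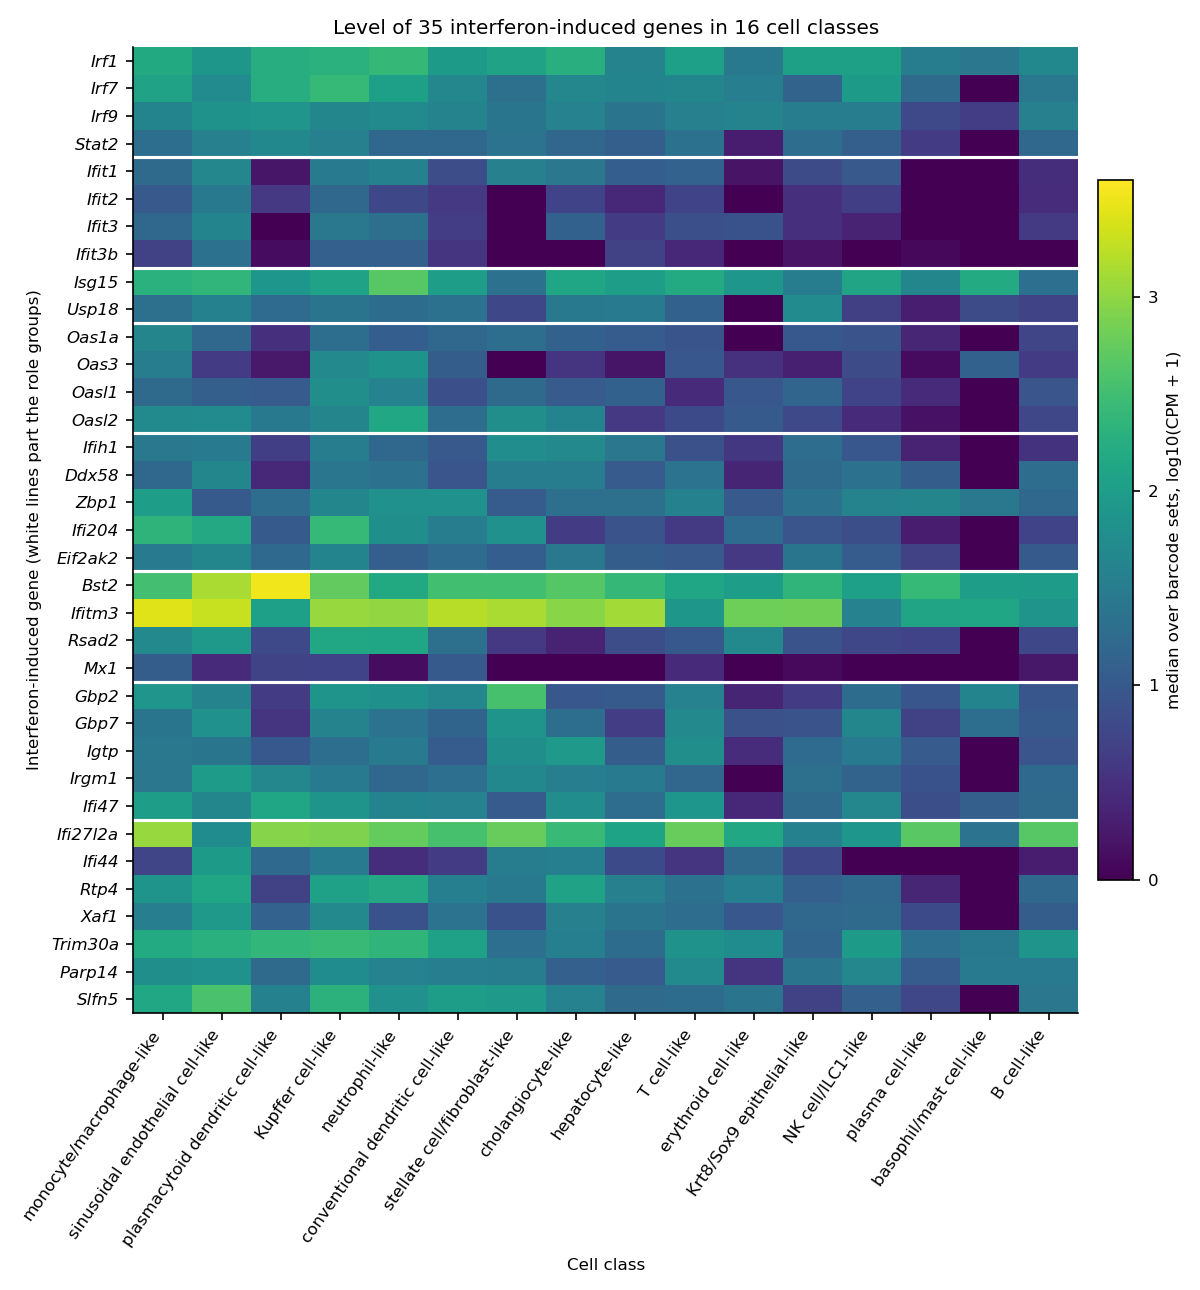
Median level over barcode sets, as log10(CPM + 1) in colour, of the 35 genes (vertical axis, parted by role) in 16 cell classes (horizontal axis). Bst2, Ifitm3 and Ifi27l2a carry the strongest colours, and Mx1 stays pale in every class, with a highest median of 10.6 CPM.

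Among the transcription factors, Irf7, which drives the second wave of type I interferon genes, was highest in Kupffer cell-like cells in each set, at 279, 195, 236 and 288 CPM (median 257). Plasmacytoid dendritic cell-like cells, which express Irf7 without stimulation, had 233, 62.4, 119 and 263 CPM (median 176). The ranges of these classes overlap, and sets 1 and 4 were above sets 2 and 3 in both. Irf1, a factor induced by interferon gamma and by inflammatory cytokines, had 247, 236, 278 and 256 CPM in neutrophil-like cells (median 252) and 163, 215, 340 and 177 CPM in Kupffer cell-like cells (median 196). The order of these classes for Irf1 turned when UMIs were pooled over all cells and sets, which weights both cells and sets by their UMIs. The pooled level was 178 CPM (95% exact Poisson interval 165 to 191) in Kupffer cell-like and 150 CPM (136 to 166) in neutrophil-like cells. Such intervals cover counting error only.

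Irf9 and Stat2 encode parts of the ISRE-binding complex. Both had their highest median in plasmacytoid dendritic cell-like cells. Irf9 had 78.7, 81.7, 68.7 and 59.2 CPM there and 49.4, 83.0, 99.3 and 53.5 CPM in sinusoidal endothelial cell-like cells, so the classes overlap. Stat2 had 44.4, 50.4, 61.6 and 39.1 CPM in plasmacytoid dendritic cell-like cells. Summed over the 4 factors, Kupffer cell-like cells had 538, 522, 641 and 536 CPM. Plasmacytoid dendritic cell-like cells had 565, 330, 490 and 472 CPM, higher in set 1 and lower in the other sets, and neutrophil-like cells had 422 to 444 CPM.

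The Ifit family encodes proteins that bind foreign RNA and block its translation. All 4 members had their highest median in sinusoidal endothelial cell-like cells, where they summed to 205, 126, 94.8 and 159 CPM (median 142). Ifit1 had 42.1, 49.8, 33.8 and 50.8 CPM there, a narrow spread, and reached 91.8 CPM in neutrophil-like cells of set 1. Ifit3 had 97.2, 26.5, 22.2 and 56.4 CPM and its copy Ifit3b 33.9, 16.5, 15.9 and 27.4 CPM. Ifit2 had 31.6, 33.0, 22.9 and 24.2 CPM. Kupffer cell-like cells followed with a family sum of 166, 46.9, 86.4 and 103 CPM. In set 3 that sum rests on 3 UMIs of Ifit1 in 78 cells, and Ifit2, Ifit3 and Ifit3b were at 0 there, where 3 counts would be 41.5 CPM. Plasmacytoid dendritic cell-like cells, rich in other members, had a family median of 4.51 CPM.

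Isg15 encodes a ubiquitin-like protein that is attached to other proteins, and Usp18 the protease that removes it and dampens the type I receptor. Isg15 had its highest median in neutrophil-like cells, at 854, 153, 102 and 774 CPM (median 464). Sinusoidal endothelial cell-like cells had 470, 147, 137 and 313 CPM (median 230), and the lowest median was in B cell-like cells, at 24.5, 13.4, 14.3 and 35.9 CPM. Isg15 was thus higher in sets 1 and 4 than in sets 2 and 3 in each of these classes, and its classes are compared within a set. Usp18 had its highest median in the Krt8/Sox9 epithelial-like class, at 58.7, 42.6 and 53.1 CPM in sets 2 to 4, though Kupffer cell-like cells were higher in set 3 (68.7 CPM), followed by sinusoidal endothelial cell-like cells at 66.1, 40.8, 34.1 and 28.4 CPM.

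In the oligoadenylate synthetase family, the active enzymes make the messenger that activates RNase L when they bind double-stranded RNA. The family sum was highest in neutrophil-like cells, at 296, 319, 99.5 and 290 CPM (median 293), against a Kupffer cell-like median of 162 CPM. In set 3 the order turned, with 138 CPM in monocyte/macrophage-like and 126 CPM in Kupffer cell-like cells. Oasl2 was highest in neutrophil-like cells in every set, at 122, 168, 81.6 and 185 CPM. Oas3 had 82.6, 97.5, 17.9 and 58.9 CPM in neutrophil-like cells, the third set resting on 3 UMIs. Oas1a showed another pattern, with its highest level in monocyte/macrophage-like cells in every set, at 55.4, 27.1, 29.8 and 59.6 CPM. Oasl1, which restrains Irf7 translation, was highest in Kupffer cell-like cells at 70.4, 87.2, 49.6 and 41.3 CPM.

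The nucleic acid sensors summed highest in Kupffer cell-like cells (494, 440, 256 and 382 CPM) and in monocyte/macrophage-like cells (466, 393, 317 and 399 CPM), which overlap. Ifi204, a DNA sensor of the HIN-200 family, was the largest of these, with 301, 330, 173 and 220 CPM in Kupffer cell-like and 254, 249, 189 and 189 CPM in monocyte/macrophage-like cells. Zbp1, a Z-nucleic acid sensor that can start necroptosis, had its highest median in monocyte/macrophage-like cells, at 134, 52.3, 64.8 and 147 CPM. The RNA sensor Ddx58, which encodes RIG-I, had its highest median in sinusoidal endothelial cell-like cells, at 45.0, 52.1, 42.3 and 33.2 CPM, and other classes led in sets 3 and 4. So did Eif2ak2, the double-stranded RNA kinase PKR, at 56.0, 34.2, 54.3 and 34.8 CPM (median 44.6), close to and overlapping the Kupffer cell-like median of 41.2 CPM. Endothelial cells led for Eif2ak2 in 1 of the 4 sets. Ifih1, which encodes the long-RNA sensor MDA5, had its highest median in stellate cell/fibroblast-like cells, at 58.1 CPM from 7 UMIs. Its leading class differed in each of the 4 sets.

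The membrane and virus restriction proteins held the largest contrasts between classes. Bst2 encodes tetherin, which holds budding virions at the cell surface and is a known marker of mouse plasmacytoid dendritic cells. It had 5189, 2989, 3138 and 3539 CPM in plasmacytoid dendritic cell-like cells, above every other class in every set and without overlap. Sinusoidal endothelial cell-like cells came next, at 1671, 1135, 1272 and 1530 CPM, with the Kupffer cell-like median at 549 and the B cell-like median at 95.7 CPM. Ifitm3, which blocks the fusion of viruses in endosomes, had 4481, 1288, 1370 and 3941 CPM in monocyte/macrophage-like cells and 3189, 1005, 756 and 2982 CPM in sinusoidal endothelial cell-like cells. Its lowest median was in NK cell/ILC1-like cells, at 33.8, 42.1, 35.04 and 235 CPM.

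Rsad2 encodes viperin, a radical enzyme that makes a chain-terminating nucleotide. It had 123, 143, 589 and 137 CPM in Kupffer cell-like cells, and the high value of set 3 rests on 24 UMIs in 78 cells. Neutrophil-like cells had 238, 161, 73.1 and 97.0 CPM, so the classes overlap. Mx1, a dynamin-like GTPase, had 84 UMIs in monocyte/macrophage-like cells and a highest class median of 10.6 CPM. The common laboratory strains, C57BL/6 among them, carry a deletion in Mx1, which is background and was not examined here.

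**Figure D3:**
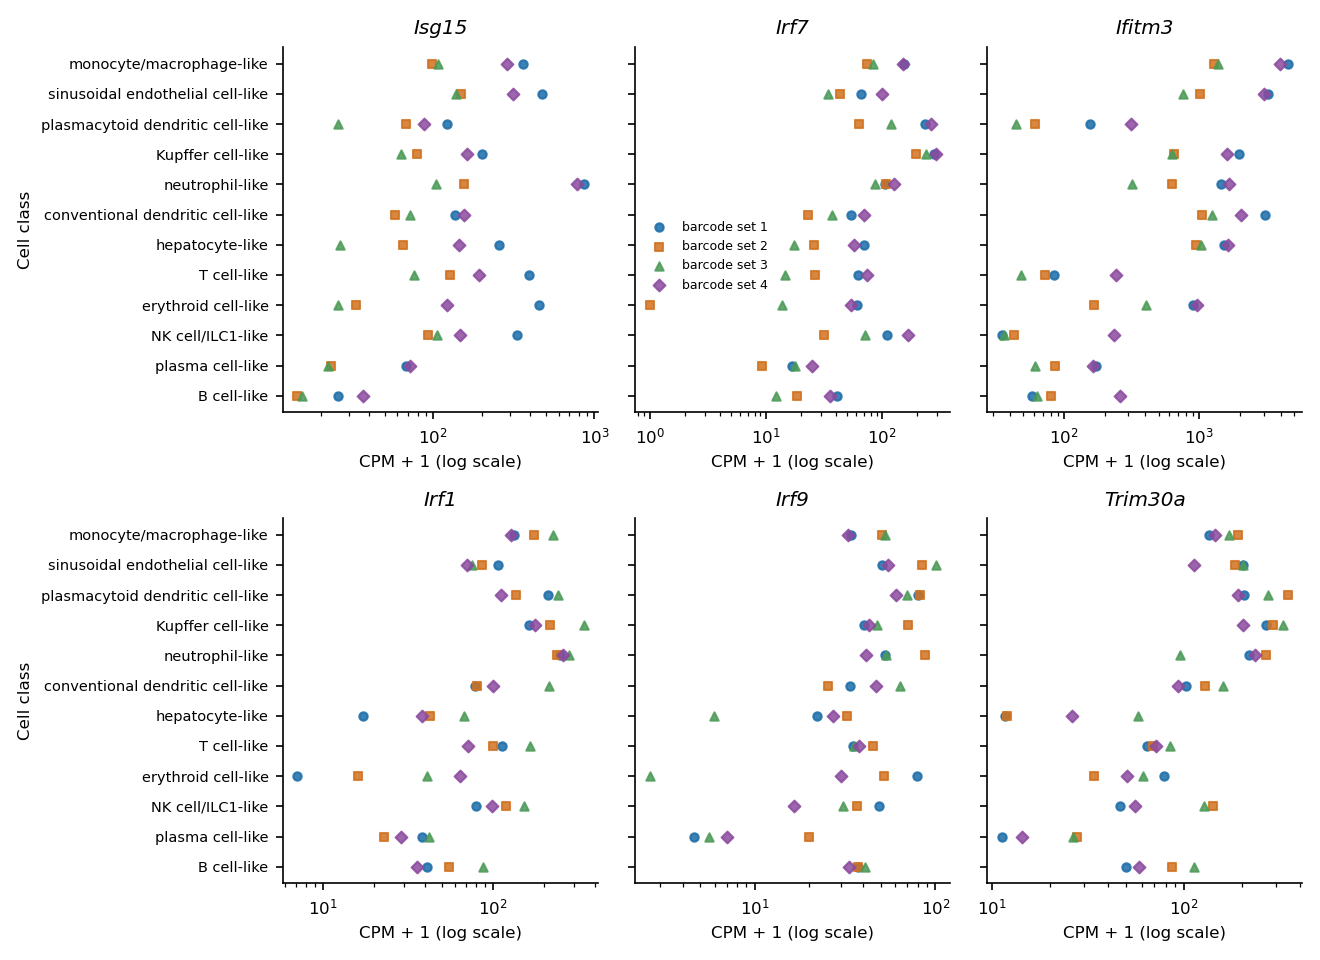
Level of 6 of the genes in the cell classes that all 4 barcode sets hold (vertical axes), as CPM + 1 on a log scale (horizontal axes), with 1 point per set. The genes are Isg15, Irf7, Ifitm3, Irf1, Irf9 and Trim30a. The sets spread widely for Isg15 (neutrophil-like cells, 102 to 854 CPM).

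The interferon-inducible GTPases act on vacuoles of intracellular microbes and are mostly induced by interferon gamma. Summed, they had 281, 322, 289 and 253 CPM in sinusoidal endothelial cell-like cells, and monocyte/macrophage-like cells were higher in sets 3 and 4 (429 and 284 CPM). Irgm1 was highest in sinusoidal endothelial cell-like cells, at 70.5, 164, 117 and 54.9 CPM. Gbp7 had 76.0, 64.3, 64.1 and 60.2 CPM in these endothelial cells (median 64.2). Its highest median was in stellate cell/fibroblast-like cells, at 71.9 CPM from 1 set. Kupffer cell-like cells had 102 CPM of Gbp7 in set 3. Ifi47 had its highest median in plasmacytoid dendritic cell-like cells, at 135, 161, 122 and 110 CPM, with neutrophil-like cells above them in set 3 (124 CPM) and monocyte/macrophage-like cells in set 4 (118 CPM). Gbp2 had 361 CPM in stellate cell/fibroblast-like cells, from 48 UMIs and the only set with enough cells, and 47.1, 67.4, 186 and 81.1 CPM in monocyte/macrophage-like cells. Igtp had its highest median in cholangiocyte-like cells, at 61.0 to 112 CPM over sets 3 and 4, the only sets with enough such cells. All 97 cholangiocyte-like cells held 47 UMIs of Igtp, and other classes led in sets 1 to 3.

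Of the other genes, Ifi27l2a, which encodes a small hydrophobic protein, had its highest median in monocyte/macrophage-like cells, at 1142, 1054, 942 and 2968 CPM. Plasmacytoid dendritic cell-like cells were next (median 886 CPM) and were higher in set 1, at 1188 CPM. It was also present in lymphoid cells, with medians of 570 CPM in T cell-like and 460 CPM in B cell-like cells, and low in sinusoidal endothelial cell-like cells at 57.9, 54.2, 51.4 and 240 CPM. Slfn5, a Schlafen family gene, was highest in sinusoidal endothelial cell-like cells in every set, at 303, 467, 436 and 195 CPM. Trim30a, a regulator of Toll-like receptor signalling, had 265, 288, 325 and 202 CPM in Kupffer cell-like cells and a median of 239 CPM in plasmacytoid dendritic cell-like cells, with overlap. Rtp4, a chaperone of membrane receptors, had 226, 71.0, 20.3 and 233 CPM in neutrophil-like cells and a median of 130 CPM in sinusoidal endothelial cell-like cells. Ifi44, Xaf1 and Parp14 were all highest in sinusoidal endothelial cell-like cells, with medians of 89.5, 85.6 and 64.7 CPM.

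To see how many of the genes were found together in single cells, each cell was thinned to 1000 UMIs, which left out shallower cells, and the members with a UMI were counted. Kupffer cell-like cells held a mean of 3.76 members (median over sets), sinusoidal endothelial cell-like cells 3.59, monocyte/macrophage-like cells 3.36, plasmacytoid dendritic cell-like cells 2.55 and B cell-like cells 0.901. The share of cells with 5 or more members was 39.3%, 25.5%, 20% and 36.2% in Kupffer cell-like cells of sets 1 to 4, from 1268 cells kept, and 51.0% of all Kupffer cell-like cells without thinning. It was 35.8%, 23.2%, 24% and 31.0% in sinusoidal endothelial cell-like cells and 25.4%, 14.4%, 20.9% and 28.1% in monocyte/macrophage-like cells. Neutrophil-like cells had 17.1%, 6.56%, 2.78% and 17.5%, from 380, 61, 36 and 211 cells kept (688 of 1315). The share without thinning was 21.8%. Cluster 0, the larger of the 2 neutrophil-like clusters compared below, had a median of 941 UMIs and cluster 7 had 4354.5. Thinning thus left out a larger share of cluster 0, and the effect of this was not tested. In B cell-like cells the median share was 0.858%, and in plasma cell-like cells it was 0 of 704 cells at this depth, which allows up to 0.426% by counting error alone. At 2000 UMIs the share in plasma cell-like cells of set 4 was 1.69%, and without thinning 13.1% of all plasma cell-like cells held 5 or more. Thinned to 2000 UMIs, the median share was 80.5% in Kupffer cell-like, 67.1% in sinusoidal endothelial cell-like and 44.1% in monocyte/macrophage-like cells. Without thinning the share was 59.0% in sinusoidal endothelial cell-like, 61.3% in monocyte/macrophage-like and 2.36% in B cell-like cells, so the order of the first 3 classes differed with and without thinning.

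Classes of related cells were then set against each other as the log2 ratio of CPM + 10 in each set, over genes with at least 20 CPM in either class. A gene was called when it was at least 2-fold higher, or lower, in every set. The ratio understates the change of low genes. Each comparison is read beside the share of all genes called by the same rule. The Kupffer cell-like, neutrophil-like and non-classical monocyte-like comparisons share monocyte/macrophage-like cells, so their values are not independent. In the first 2 of these, non-classical monocyte-like cells were not parted from the monocyte/macrophage-like class. A finer clustering had 29, 97, 55 and 627 such cells in sets 1 to 4, so the make-up of the class differs between sets.

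Plasmacytoid and conventional dendritic cell-like cells differed in opposite directions by gene. Of 22 members that passed the filter, 2 were called higher in plasmacytoid dendritic cell-like cells (6.72% of 5757 genes were) and 2 lower (4.88% of genes). The members called higher were Bst2, with a log2 ratio of 3.53, and Irf7, with 1.63. Conventional dendritic cell-like cells had 323, 210, 318 and 355 CPM of Bst2 and 53.3, 22.04, 36.3 and 69.6 CPM of Irf7, below the plasmacytoid value of the same set each time. The members called lower were Ifitm3 and Gbp2. Ifitm3 had 156, 60.5, 43.1 and 311 CPM in plasmacytoid and 3034, 1040, 1248 and 2013 CPM in conventional dendritic cell-like cells, a log2 ratio of -4.05. Gbp2 had 2.51, 0, 3.99 and 8.30 CPM against 27.7, 31.6, 189 and 58.7 CPM, a log2 ratio of -1.98, where 3 counts in plasmacytoid dendritic cell-like cells of set 2 would be 8.62 CPM. The median over the 22 members was 0.05 (-0.59 to 0.10 over sets), against 0.29 over all genes, and its sign turned under 3 of the other settings tried. With a pseudocount of 50 CPM, only Bst2 and Ifitm3 were called.

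Kupffer cell-like cells had no called member in either direction against monocyte/macrophage-like cells among 32 that passed, where 3.34% of 5957 genes were higher and 2.4% lower. The median over members was 0.26 (-0.09 to 0.45 over sets), against 0.18 (0.175) over all genes. The largest ratios in favour of Kupffer cell-like cells were 1.52 for Rsad2, 1.43 for Ifi44, 1.26 for Oasl1 and 1.10 for Irf7. In the other direction Ifitm3 had -1.14 and Zbp1 -1.11. Irf7 and Oasl1 had ratios above 0 in every set (0.82 to 1.40 and 0.93 to 2.31), and each missed the 2-fold bound in 1 set or more. Without set 2, 2 members were called higher and 2 lower, and without set 3, 1 was called higher. Without the cells of shared barcodes, 1 member was called lower.

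Neutrophil-like cells had 3 of 29 members called lower than monocyte/macrophage-like cells (6% of 5479 genes were) and none called higher (4.22% of genes). These were Ifi204 (-1.51), Ifitm3 (-1.44) and Oas1a (-1.33). Ifi204 had 27.4, 110, 53.5 and 67.4 CPM in neutrophil-like cells, below the 189 to 254 CPM of monocyte/macrophage-like cells. Ifitm3 had 1432, 625, 319 and 1654 CPM and was lower in each set, though the ranges over sets overlap. Oas1a had 17.0, 4.85, 0 and 17.3 CPM, where 3 counts in set 3 would be 19.3 CPM. Rsad2 (1.27), Oasl2 (1.25) and Oasl1 (1.09) had positive ratios that were not called, and without set 3, 2 members were called higher. The neutrophil-like class joins 2 clusters that differ in these genes, as described below. The smaller one, cluster 7, made up 85 of 443, 41 of 190, 40 of 105 and 30 of 577 cells in sets 1 to 4. The part of this make-up in the calls was not tested, and the larger cluster was not compared with monocyte/macrophage-like cells by itself. The median over members was -0.21, against -0.26 over all genes. With a pseudocount of 50 CPM, or with the median of all genes set to 0, none of the 3 was called, and the latter turned the sign of the median (0.055).

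Among lymphocytes, Ifi27l2a set T cell-like cells apart from NK cell/ILC1-like cells. It had 971, 400, 356 and 740 CPM against 90.0, 45.9, 65.9 and 185 CPM, a log2 ratio of 2.57, with no overlap. It was the only one of 17 members called, where 0.948% of 5379 genes were higher and 1.64% lower. The median over members was 0.35, against -0.09 over all genes. Irf7 had the lowest ratio, at -0.92.

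In the epithelial classes, compared over sets 2 to 4, none of 16 members was called between Krt8/Sox9 epithelial-like and hepatocyte-like cells, where 7.5% of 6305 genes were higher and 3.81% lower. The median over members was -0.35, against 0.39 (0.385) over all genes, and it ranged from -0.839 to -0.117 over the other settings. Without set 3 or set 4, 1 member was called higher, and without set 2, 1 was called lower. Irf1 (1.22), Usp18 (1.12) and Parp14 (0.93) had the highest ratios and Isg15 the lowest. A group of 808 non-classical monocyte-like cells, which a finer clustering parted from the rest, had none of 27 members called against monocyte/macrophage-like cells, where 0.165% of 5439 genes were higher and 0.938% lower. The median was -0.60, against -0.02 over all genes. Without set 4, 3 members were called lower.

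**Figure D4:**
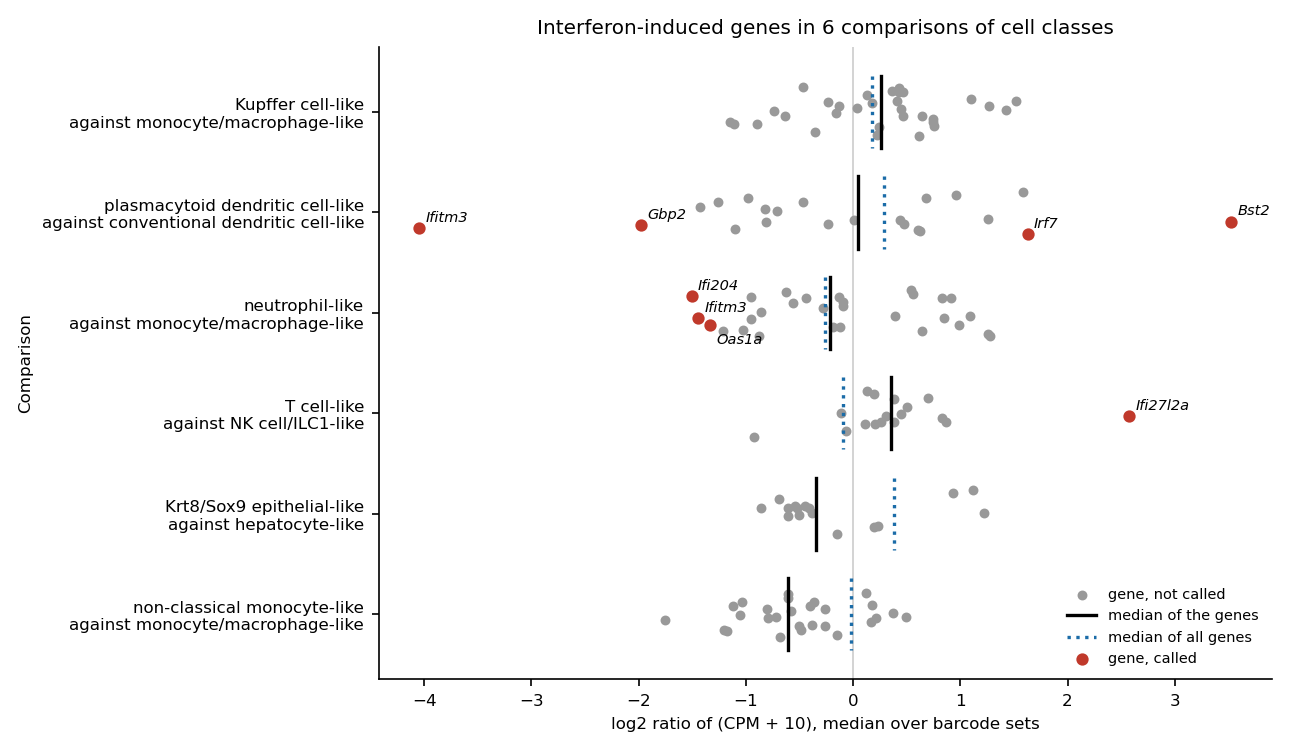
Median log2 ratio of CPM + 10 over barcode sets (horizontal axis) for each member that passed the filter, in 6 comparisons of cell classes (vertical axis), with called members marked. Bst2 (3.53) and Ifitm3 (-4.05) lie at the ends, both in the comparison of plasmacytoid with conventional dendritic cell-like cells.

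Within the neutrophil-like class, 2 clusters differed for many members. Cluster 0 held 1119 cells led by G0s2, S100a9 and Csf3r, genes of mature neutrophils. Cluster 7 held 196 cells led by Ngp, Camp and Ltf, granule genes of immature neutrophils, and by Elane, Mpo and Prtn3. Markers of cycling cells had a mean log2 ratio of 1.19 in cluster 7 to all other cells. In a finer clustering, the Ngp and Camp cluster held 105 cells. A separate unnamed cluster of 179 cells was led by Elane, Mpo and Prtn3, with a cycling ratio of 2.47. Cluster 0 and cluster 7 were not compared again on that clustering. The comparison of cluster 0 with cluster 7, and that of monocyte/macrophage-like clusters below, was chosen after the values were seen. Of 27 members that passed, 11 were called higher in cluster 0 (6.7% of 5330 genes were) and none lower (4% of genes). The median ratio over members was 1.67 (1.52 to 2.10 over sets), against 0.04 over all genes. Summed, the 35 genes had 5459, 3836, 2996 and 6553 CPM in cluster 0 and 2234, 1369, 853 and 2434 CPM in cluster 7, with no overlap.

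The called members came from most roles. Irf1 had 298, 290, 433 and 268 CPM in cluster 0 against 31.7, 38.9, 25.8 and 34.7 CPM, a log2 ratio of 2.76, and Irf7 had a ratio of 1.86. Isg15 had 1034, 182, 165 and 807 CPM against 97.2, 49.9, 0 and 172 CPM, a ratio of 2.73, where 3 counts in cluster 7 of set 3 would be 26.8 CPM. Oasl2 had 151, 209, 123 and 194 CPM against 3.62, 15.7, 13.9 and 28.0 CPM, a ratio of 2.79. The others called were Slfn5 (2.49), Trim30a (2.36), Rtp4 (2.34), Ifi204 (2.08), Ifi27l2a (1.81), Igtp (1.64) and Irgm1 (1.42). Some of these calls rest on very few counts in a set. In cluster 0, 3 counts would be 27.8 CPM in set 2 and 69.1 CPM in set 3. Irgm1 had 10.2 CPM in cluster 0 of set 2, against 0 in cluster 7. In set 3, Slfn5 had 43.9 and Rtp4 32.8 CPM in cluster 0, each against 0 in cluster 7. Ifitm3 did not follow the called members: it had 1417, 678, 258 and 1671 CPM in cluster 0 and 1499, 435, 418 and 1356 CPM in cluster 7. The median was 941 UMIs per cell in cluster 0 and 4355 (4354.5) in cluster 7, and the part of this depth difference in the result was not tested. Under a pseudocount of 50 CPM, 4 members were called.

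**Figure D5:**
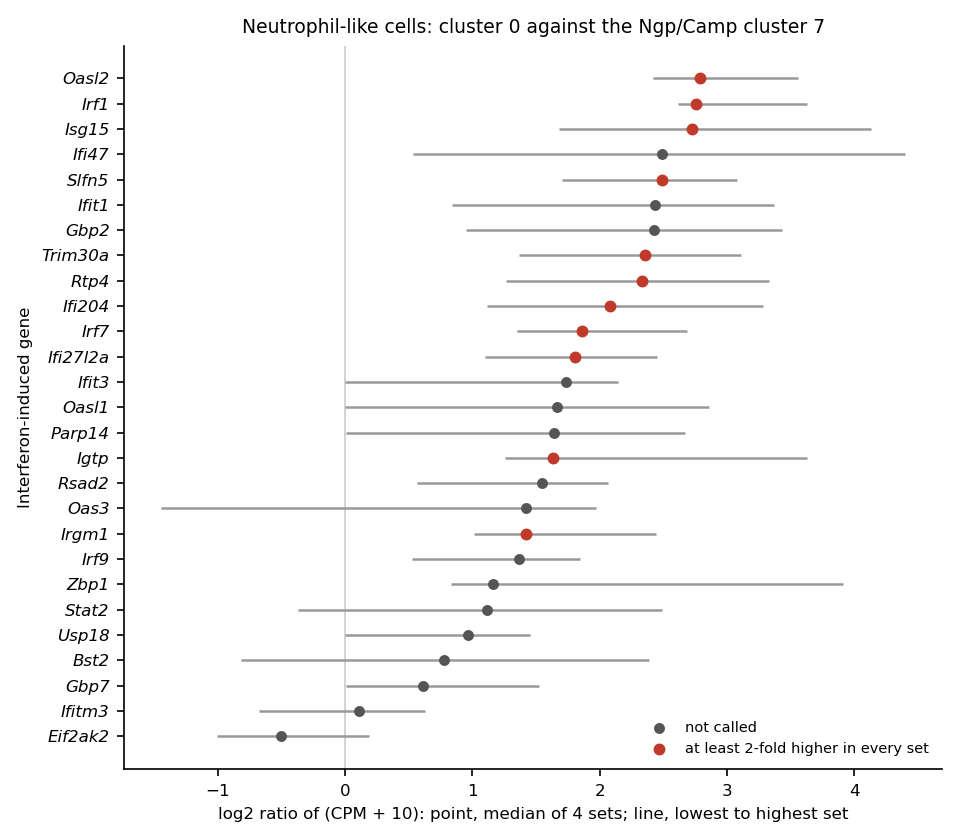
Log2 ratio of CPM + 10 of cluster 0 to cluster 7 within neutrophil-like cells (horizontal axis) for each member that passed the filter (vertical axis), as the median of 4 sets with a line from the lowest to the highest set. The 11 called members have lines wholly above 1, and Ifitm3 has a median of 0.11.

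Within the monocyte/macrophage-like class, cluster 2 (1716 cells) and cluster 5 (633 cells) differed for 1 member. Cluster 2 was led by Chil3, Lyz2 and F13a1, and its 10 leading genes also held Ace and Ly6i. Ace and Ly6i led the non-classical monocyte-like cells of the finer clustering too, and the part of such cells in the values below was not tested. Cluster 5 had Gpnmb, Trem2 and Ms4a7, genes of lipid-associated macrophages. Ifitm3 had 5532, 1787, 1880 and 4628 CPM in cluster 2 and 1472, 615, 448 and 1059 CPM in cluster 5, a log2 ratio of 1.98. It was the only one of 29 members called, where 2.24% of 5526 genes were higher and 2.53% lower. The median over members was 0.01, against -0.02 over all genes, and without set 3 or set 4 its sign turned.

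The genes upstream of these members give the setting. Of 21 interferon genes looked for, 2 were in the table: Ifng, with 584 UMIs and its highest median in NK cell/ILC1-like cells (108 CPM), and Ifnb1, with 22 UMIs in all. All 6 receptor genes passed 20 CPM in some class. Ifnar1 and Ifnar2 had their highest medians in plasmacytoid dendritic cell-like cells (245 and 285 CPM) and were called higher there than in conventional dendritic cell-like cells, while Ifngr1 was called lower there and was highest in NK cell/ILC1-like cells (1107 CPM). All 7 signalling genes passed, with Jak1 highest in sinusoidal endothelial cell-like cells (838 CPM). Of 13 sensing genes 9 passed, with Irf8 highest in plasmacytoid dendritic cell-like cells (1984 CPM).

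Other genes known to be induced by interferon were described beside the members. Of 58 looked for, 56 were in the table and 50 passed 20 CPM. In plasmacytoid against conventional dendritic cell-like cells, 4 of 32 were called higher (6.72% of all genes were), among them Ly6e, and 7 lower (4.88% of all genes), among them the chemokines Cxcl9 and Cxcl10 and the Ifitm3 relatives Ifitm1 and Ifitm2. In neutrophil-like against monocyte/macrophage-like cells, 2 of 36 were higher, Ifitm1 and Slfn1, and 5 lower, where 4.22% and 6% of all genes were. Ifitm1 was thus called higher where its relative Ifitm3 was called lower. In Kupffer cell-like against monocyte/macrophage-like cells, 3 of 42 were higher and 1 lower, where 3.34% and 2.4% of all genes were.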

How the data were processed

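Single cells of 4 mouse liver tumour samples were measured. Per the labels' protocols, libraries were made with a 10x 3' kit. Cell Ranger, Seurat, CASAVA 1.8 and the mm10 build were used, per the submitters' processing notes. The sources used here do not state the filters on cells. The authors deposited 1 table of the natural log of 1 plus UMIs per cell total times 10000, for 24802 cells. UMI counts were recovered from it (100% whole within 0.001, 65920312 in all). The sum of counts in a set ran from 9093921 to 35033778. Cells were clustered with scanpy 1.11.5 (Leiden) without the interferon genes and named by markers, by a naming rule chosen after seeing the clusters. No doublet caller was run and free RNA was not removed. Intervals cover counting error only. The log2 comparison used a pseudocount of 10 CPM and a filter of 20 CPM, a call needed a fold of 2 in every set, and the procedure was tested on simulated data. Members named in the text are all 35, with the called ones and the largest ratios of each comparison; clusters inside a class were added later. The members and lists were chosen with earlier results of these data known. Alternatives covered clustering, cell filters, weighting, pseudocount, filter, centring and leaving out each set. Promoters came from RefSeq (28 of 35 genes).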

Additional observations from a re-analysis of the deposited data

How the results depend on the processing

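No pairing of samples or genotypes was possible because the barcode sets carry no sample or replicate labels. The class ratios were taken within each barcode set, so the classes of a comparison were paired by set. Bst2 and Ifitm3 (plasmacytoid against conventional dendritic cell-like) and Ifi27l2a (T cell-like against NK cell/ILC1-like) kept their calls under every alternative run. Calls of Irf7, Gbp2, Ifi204, Ifitm3 (neutrophil-like) and Oas1a were lost in 18 of the member and alternative pairs. The cause of the changes below was not tested. Depth limits low members: 3 counts were 19.3 CPM in neutrophil-like and 41.5 CPM in Kupffer cell-like cells of set 3. The non-classical comparison could not be computed at resolution 0.5 or with the interferon genes in the clustering, where no such class was found. The comparisons of clusters inside a class, and leaving out shared barcodes, were chosen after seeing the data.

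With the interferon genes in the clustering, 2 members were higher in Kupffer cell-like than in monocyte/macrophage-like cells, and the Krt8/Sox9 epithelial-like median ratio was -0.494. At resolution 0.5 that median was -0.448 and 1 member was lower in neutrophil-like cells. At resolution 2.0 it was -0.171, and the plasmacytoid median was -0.035. With cells of at least 500 genes the T cell-like median was 0.213 and the Krt8/Sox9 one -0.244, and Kupffer cell-like cells were highest for 8 members and neutrophil-like cells for 2. With cells weighted by UMIs these were 0.201, -0.117, 8 and 3.

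With a pseudocount of 1 CPM, 3 members were higher in Kupffer cell-like and 1 in Krt8/Sox9 epithelial-like cells (median -0.461), and the neutrophil cluster median was 2.48. With 50 CPM, 1 member was higher and 1 lower in plasmacytoid dendritic cell-like cells and 0 lower in neutrophil-like cells, with medians of 0.203 (T cell-like), -0.147 (Krt8/Sox9) and 0.739 (neutrophil clusters, 4 members called higher). With a filter of 100 CPM the medians were 0.694 (plasmacytoid, 1 member lower), 0.146 (neutrophil-like), -0.425 (Krt8/Sox9), -0.078 (non-classical), 2.19 (neutrophil clusters, 7 members higher) and 0.358 (monocyte/macrophage clusters). With no filter they were -0.265 (plasmacytoid), 0.218 (T cell-like) and -0.151 (Krt8/Sox9). With the median of all genes set to 0 they were -0.247 (plasmacytoid, 1 member higher), 0.055 (neutrophil-like, 0 members lower) and -0.839 (Krt8/Sox9), and 1 member was lower in Kupffer cell-like cells, as it was without cells of shared barcodes.

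Leaving out each barcode set in turn gave 0 to 2 members higher and 0 to 2 lower in Kupffer cell-like cells, 0 to 2 higher in neutrophil-like cells, and 0 to 1 higher and 0 to 1 lower in Krt8/Sox9 epithelial-like cells, with a median from -0.425 to -0.354. It gave 0 to 3 lower in non-classical monocyte-like cells, 12 to 14 higher in neutrophil cluster 0, and a monocyte/macrophage cluster median of -0.15 without set 3 and -0.196 without set 4 (up to 0.179). As a call needs every set, leaving out a set can lose a call only through the filter of 20 CPM. Counts that stay or rise are thus no sign of firmness. Sinusoidal endothelial cell-like cells were highest for 7 to 11 members and monocyte/macrophage-like cells for 3 to 6.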

Other observations

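The 4 barcode sets, which no source used here ties to a sample, did not have like levels of all members. The split of sets 1 and 4 from sets 2 and 3 was not among the planned results, so the counts below describe it and do not test it. Isg15 was higher in both sets 1 and 4 than in both sets 2 and 3 in 12 of 12 cell classes with 20 CPM. In T cell-like cells it had 394, 125, 75.0 and 190 CPM in sets 1 to 4, in hepatocyte-like cells 255, 63.5, 25.4 and 143 CPM and in plasma cell-like cells 66.7, 22.1, 21.2 and 71.0 CPM. The same order held for Irf7 in 10 of 11 classes, for Ifitm3 in 10 of 12, for Ifi27l2a in 9 of 12, for Bst2 in 8 of 12 and for Rtp4 in 8 of 9. It held in 0 of 12 classes for Irf1 and in 0 of 11 for Irf9 and for Trim30a, whose levels in plasmacytoid dendritic cell-like cells were 205, 345, 273 and 190 CPM.

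Over all genes, the share with this order ran from 16.2% in neutrophil-like to 30.9% in conventional dendritic cell-like cells. Among members it was 12 of 30 in sinusoidal endothelial cell-like cells (22.2% of all genes), 12 of 32 in Kupffer cell-like cells (18.7%), 9 of 17 in T cell-like cells (27.6%), 9 of 27 in monocyte/macrophage-like cells (24.2%) and 3 of 10 in B cell-like cells (28.7%). The share differed by transcript length over all genes: with genes parted into 3 bins of equal size, its median over classes was 48.2% in the bin of shortest transcripts, 18.6% in the middle bin and 8.02% in the bin of longest ones. It also differed by the G and C content of the transcript, with 18.6% in the lowest, 25% in the middle and 31.1% in the highest bin. Ifi27l2a (463 bases), Ifitm3 (678), Isg15 (756) and Bst2 (792) have short transcripts, and Irf1 (2137), Irf9 (2959) and Trim30a (3771) longer ones, while Irf7 (2237) is close to Irf1 in length. Rtp4 has 1859 bases, and Irgm1 (2259 bases) had this order in 0 of 7 classes. Malat1 took 2.61%, 0.947%, 1.37% and 3.14% of UMIs in sets 1 to 4, and ribosomal protein genes 25.7%, 30.6%, 31.1% and 25.9%. Within classes the sets also occupied different clusters. T cell-like cells of sets 1 and 4 were mostly in cluster 14 (342 of 380 and 405 of 629) and those of sets 2 and 3 in cluster 15 (779 of 807 and 610 of 623). B cell-like cells of sets 1 and 3 were mostly in cluster 6 (404 of 437 and 1124 of 1147), those of set 2 in cluster 24 (1677 of 1891) and those of set 4 in cluster 22 (3161 of 3230). Sinusoidal endothelial cell-like cells of sets 2 and 3 were mostly in cluster 19 and those of set 4 in cluster 21. The part of these clusters, of transcript length, of G and C content, of depth and of genotype in the order of the sets was not tested.

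Barcodes that occur in more than 1 set formed 377 pairs of cells. In 104 of these pairs (27.6%) both cells were in the same class, against 12% of all pairs between sets.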
